A study of Mus musculus with 12 samples.

Results

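In 12 mouse livers, 8 genes were described that are known in mouse liver as genes of the continuous pattern of growth hormone secretion: Cyp2a4, Cyp2b9, Cyp2b13, Cyp17a1, Sult3a1, A1bg, Cux2 and Hao2. They were taken by name from both tables of raw counts. Of the 8 genes, 7 were among the 20775 genes listed for the chow livers and 8 among the 22709 listed for the HFCF livers, and Sult3a1 was the gene without a row in the chow table. The genes were selected on their names with the genotype differences of both diets already known, so their values are a description and no p-value is given for them. Where the text counts which of them were called in fits over all genes, the count is part of that description and is no independent evidence. The livers came from male C57BL/6N mice with floxed Elavl1 alleles (HuR flox/flox), 3 in each of 4 groups: chow WT, chow HuRHep-/-, HFCF WT and HFCF HuRHep-/-. Per the labels, all mice were injected at 4 to 6 months of age, those labelled HuRHep-/- with AAV8-Tbg-Cre, a virus that carries Cre under a hepatocyte promoter, and the WT mice with AAV8-Tbg-null. The HFCF mice had eaten a diet with 40 kcal% fat, 2% cholesterol and 20 kcal% fructose for 16 weeks, and the chow mice a normal chow diet. The promoter limits the deletion to hepatocytes, so other liver cells would keep the gene.

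Growth hormone leaves the pituitary in pulses in male mice and almost without pause in females, and hepatocytes read the pattern through the growth hormone receptor, the kinase JAK2 and the transcription factor STAT5B. Pulses hold a group of male-biased liver genes high and keep a group of female-biased genes low, which become active when the hormone is present without pause or when the pulses are lost. Cyp2a4, Cyp2b9 and Cyp2b13 encode cytochromes P450 that hydroxylate steroids and drugs. Cyp17a1 encodes the steroid hydroxylase and lyase on the way to androgens, Sult3a1 a sulfotransferase, Hao2 a peroxisomal oxidase of hydroxy acids, A1bg a plasma glycoprotein of the immunoglobulin superfamily, and Cux2 a homeobox repressor that is present in female and nearly absent in male liver.

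Cyp2a4, Cyp2b9 and Cyp2b13 lie in 1 cluster of Cyp2 genes on chromosome 7 of GRCm38, and each has a close relative there, which bears on how reads were assigned to them. Cyp2b13 (ENSMUSG00000040583) runs from 26061497 to 26096197, Cyp2b9 (ENSMUSG00000040660) from 26173411 to 26210661 and Cyp2a4 (ENSMUSG00000074254) from 26307169 to 26315088, all on the plus strand, and Cyp2a5, the relative of Cyp2a4, from 26835305 to 26843548. The part from Cyp2b10 to Cyp2a12, the outermost of the relatives listed here, spans 1140 kilobases and holds 15 protein-coding genes, 10 of them named Cyp2. Between Cyp2b13 and Cyp2b9 lie 77213 bases. The other 5 genes lie apart, Cyp17a1 (ENSMUSG00000003555) at chr19:46667165-46673172, Sult3a1 (ENSMUSG00000069668) at chr10:33857721-33879532, A1bg (ENSMUSG00000022347) at chr15:60896859-60923012, Cux2 (ENSMUSG00000042589) at chr5:121856366-122050102 and Hao2 (ENSMUSG00000027870) at chr3:98874521-98893239. The 250 bases before the RefSeq start are printed below for both pairs, because they are nearly the same within a pair while the counts are not. Capitals mark the bases that differ within a pair or have no partner in the alignment. The windows were chr7:26173159-26173408 for Cyp2b9, chr7:26061245-26061494 for Cyp2b13, chr7:26306942-26307191 for Cyp2a4 and chr7:26835089-26835338 for Cyp2a5 (RefSeq starts, GRCm38.p6).
Cyp2b9: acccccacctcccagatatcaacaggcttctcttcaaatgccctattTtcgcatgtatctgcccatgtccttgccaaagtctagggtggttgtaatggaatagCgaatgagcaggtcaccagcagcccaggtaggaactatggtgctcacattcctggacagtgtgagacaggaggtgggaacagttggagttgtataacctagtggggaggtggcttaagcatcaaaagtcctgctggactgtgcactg
Cyp2b13: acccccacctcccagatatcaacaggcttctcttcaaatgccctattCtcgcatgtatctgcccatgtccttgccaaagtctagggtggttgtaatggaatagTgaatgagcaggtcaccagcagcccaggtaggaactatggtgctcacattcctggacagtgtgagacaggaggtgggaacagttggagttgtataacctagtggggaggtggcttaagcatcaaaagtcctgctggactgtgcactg
Cyp2a4: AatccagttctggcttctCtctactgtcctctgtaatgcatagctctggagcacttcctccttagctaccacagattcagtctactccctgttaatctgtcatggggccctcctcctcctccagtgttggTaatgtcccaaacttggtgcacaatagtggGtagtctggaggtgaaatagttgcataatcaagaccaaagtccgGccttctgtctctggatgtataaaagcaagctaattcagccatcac
Cyp2a5: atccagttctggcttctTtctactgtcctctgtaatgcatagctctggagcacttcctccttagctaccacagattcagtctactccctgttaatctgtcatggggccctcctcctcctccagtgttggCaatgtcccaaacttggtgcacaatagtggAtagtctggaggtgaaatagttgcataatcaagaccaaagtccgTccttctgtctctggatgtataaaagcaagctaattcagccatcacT

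Between Cyp2b9 and Cyp2b13, 2 of 250 bases differed, and between Cyp2a4 and Cyp2a5 4 bases differed and 2 had no partner, since the starts are offset by 1 base. Promoter windows of 300 bases, from 250 before to 50 after the start, were found for 7 of the 8 genes. On both strands they were searched for TTCNNNGAA, the motif of STAT5, which motifs of BCL6 overlap, and for ATTGAT and ATCGAT, which HNF6 and CUX proteins bind. Sult3a1 and A1bg each held 1 TTCNNNGAA and 1 ATTGAT, and the second of the Cux2 windows held 1 ATCGAT. The windows of Cyp2a4, Cyp2b9, Cyp2b13 and Hao2 held none of these letters. Of 32851 windows of all genes, 8.3% held TTCNNNGAA, 7.54% ATTGAT and 0.925% ATCGAT.

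The coding sequences can be told apart at fewer places in the Cyp2a pair than in the Cyp2b pair. The coding parts of Cyp2a4 and Cyp2a5 differed at 23 of 1482 bases and those of Cyp2b9 and Cyp2b13 at 107 of 1473. The stretches of 60 bases with the most differences inside 1 coding exon are shown with the differing bases in capitals, at chr7:26307666-26307725 in exon 2 of Cyp2a4, chr7:26835811-26835870 in exon 2 of Cyp2a5, chr7:26200824-26200883 in exon 7 of Cyp2b9 and chr7:26088336-26088395 in exon 7 of Cyp2b13 (plus strand, GENCODE vM21).
Cyp2a4: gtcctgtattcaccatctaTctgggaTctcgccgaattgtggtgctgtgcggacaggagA
Cyp2a5: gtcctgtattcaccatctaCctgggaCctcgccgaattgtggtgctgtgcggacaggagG
Cyp2b9: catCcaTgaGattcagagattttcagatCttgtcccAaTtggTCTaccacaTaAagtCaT
Cyp2b13: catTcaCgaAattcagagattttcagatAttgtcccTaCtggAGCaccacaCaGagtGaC

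Of the words of 31 bases in the Cyp2a4 transcript, 58.1% also occurred in transcripts of other genes, 55.9% in Cyp2a5 alone. The share was 40.8% for Cyp2b13 and 26.1% for Cyp2b9, where Cyp2b13 shared most with 19.6%. It was 13.8% for Sult3a1, shared with Sult3a2, and 0.168% or less for A1bg, Cux2, Hao2 and Cyp17a1. Counts of the 3 Cyp2 genes are therefore uncertain in so far as the authors' counting could split reads between relatives.

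Total counts per library ran from 30071731 to 35949203. Elavl1, which encodes HuR, had between 876 and 948 counts in the chow WT livers and 1261 to 1475 in the chow livers labelled HuRHep-/-, with a log2 fold change of 0.41 ± 0.068 (standard error) and adjusted p = 0.0219 by limma and the Benjamini-Hochberg method. In the HFCF livers it had 791 to 904 counts in WT and 1242 to 1299 in those labelled HuRHep-/- (0.38 ± 0.072 on the same scale, adjusted p = 0.0327 by limma, and 0.45 ± 0.072 without WT replicate 3). The targeted transcript was higher, not lower, under the label HuRHep-/-, so each genotype direction given here rests on the labels, and the counts do not separate the exons of the gene. HFCF WT replicate 3 went against the other HFCF WT livers in several of the 8 genes, as described with each of them. Over 14535 genes the standard deviation of the log2 differences was 0.547 between HFCF WT replicates 1 and 3, 0.605 between replicates 1 and 2 and 0.685 between replicates 2 and 3, the last being the largest of the 12 pairs of replicates in the study, where the pairs of the other groups lay at 0.443 to 0.631. The genotype differences of the 8 genes in HFCF livers are given with and without it. All 12 livers had 0 to 7 counts of Xist and at least 1309 of the Y-linked Ddx3y, as in males, and no liver of females was among the samples, so the label of the group could not be set against female levels.

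**Figure D1:**
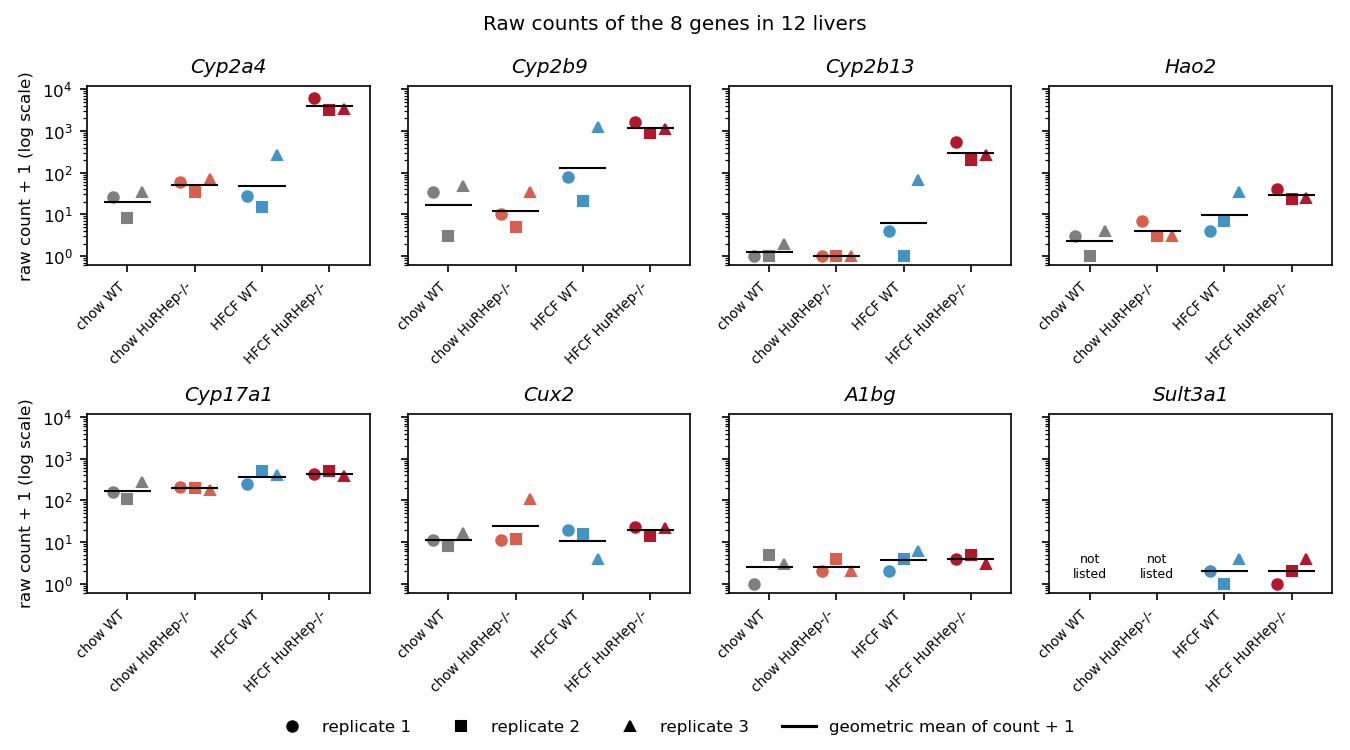
Raw count plus 1 (log scale) of each of the 8 genes in every liver, by group, with replicates 1, 2 and 3 as circle, square and triangle and the geometric mean as a line. Cyp2a4, Cyp2b9, Cyp2b13 and Hao2 are high in the 3 HFCF livers labelled HuRHep-/- and intermediate or high in HFCF WT replicate 3, and the other 4 genes do not have this pattern.

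In the chow livers the genes were low in both genotypes, and no gene of the 8 had groups without overlap. Cyp2a4 had 25, 7 and 34 raw counts in the WT livers and 59, 33 and 68 in the livers labelled HuRHep-/-. The lowest of the latter, 33 counts, lay between the WT values, and the log2 fold change was 1.34 on the scale of log2 CPM, which are counts scaled by the size of the library (standard error 0.56). Cyp2b9 had 33, 2 and 46 counts in WT and 9, 4 and 33 in HuRHep-/- livers, and its log2 fold change was -0.59 with 1.16 as standard error. The values of the genotypes overlapped over most of their range. Cyp2b13 had 0, 0 and 1 counts in WT and 0 in each of the 3 livers labelled HuRHep-/-, where a count of 0 allows up to 3 counts per library, or 0.0907 CPM on average.

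Cyp17a1 was the most abundant of the 8 genes in the chow livers, with 160, 108 and 276 counts in WT and 214, 199 and 181 in HuRHep-/- livers. The WT livers lay on both sides of the others (log2 fold change 0.11, standard error 0.29). Cux2 had 10, 7 and 16 counts in WT and 10, 11 and 107 in HuRHep-/- livers. Its log2 fold change of 0.99 (standard error 0.87) rested on 1 liver, HuRHep-/- replicate 3, and was -0.12 without it. Hao2 had 2, 0 and 3 counts in WT and 6, 2 and 2 in HuRHep-/- livers, and A1bg 0, 4 and 2 against 1, 3 and 1. These last 2 genes and Cyp2b13 did not pass the filter on low counts, which asked for the equivalent of 10 counts in at least 3 libraries.

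Of the 4 genes that passed the filter in chow livers, 0 were called by limma and 0 with voom weights. A gene was called where its adjusted p did not exceed 0.05, its fold change reached 1.5 and each group held 10 or more counts. Over all 13526 genes tested, 2.23% were called, and 29.5% had groups without overlap.

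In the HFCF livers Cyp2a4, Cyp2b13 and Cyp2b9 were far higher in those labelled HuRHep-/- than in WT replicates 1 and 2, with WT replicate 3 in between or among them. Cyp2a4 had 26, 14 and 271 counts in the WT livers and 6229, 3128 and 3300 in the HuRHep-/- livers. The groups did not overlap, and WT replicate 3 lay between the other WT livers and the HuRHep-/- livers. In CPM the means were 3.24 ± 4.65 in WT and 108 ± 40.8 in HuRHep-/- livers (SD, n = 3 each), a ratio of 33.3, and the log2 fold change was 6.21 (standard error 1.01). Without WT replicate 3 the ratio of means was 195 and the log2 fold change 7.54 (standard error 0.32).

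Cyp2b13 had 3, 0 and 64 counts in HFCF WT livers and 532, 203 and 259 in those labelled HuRHep-/-. All 3 HuRHep-/- livers lay above all WT livers, and WT replicate 3 held 64 of the 67 WT counts. The log2 fold change was 5.83 (standard error 1.60), and 7.79 (standard error 0.83) without WT replicate 3, a value that depends on the pseudocount because the remaining WT livers held 3 counts. Cyp2b9 had 79, 20 and 1239 counts in WT and 1671, 887 and 1109 in HuRHep-/- livers. Here the groups overlapped, since WT replicate 3 lay above 2 of the 3 HuRHep-/- livers. The log2 fold change of Cyp2b9 was 3.02 (standard error 1.33), and 4.73 (standard error 0.51) without WT replicate 3. The ratio of mean CPM, on which WT replicate 3 weighs more, was 2.25 for Cyp2b9 (31.5 over 14.0 CPM) and 12.1 for Cyp2b13 (8.50 over 0.704 CPM). Without that liver the ratio of Cyp2b9 was 23.4.

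Hao2, the peroxisomal oxidase, had 3, 6 and 34 counts in HFCF WT livers and 39, 22 and 24 in HuRHep-/- livers. In raw counts WT replicate 3 lay among the HuRHep-/- livers, and scaled by library size it was the highest of the 6 livers (1.08 CPM against 0.972, 0.570 and 0.646 CPM in HuRHep-/- livers), with the other 2 WT livers below them. The log2 fold change was 1.40 (standard error 0.84), and 2.42 (standard error 0.48) without WT replicate 3. At 3 to 39 counts per library counting error is large for Hao2, and its part in the spread was not tested.

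The other 4 genes did not share this pattern. Cyp17a1 had 246, 509 and 396 counts in HFCF WT and 422, 514 and 377 in HuRHep-/- livers, with means of 11.5 ± 4.61 and 11.3 ± 1.73 CPM (SD, n = 3 each) and a log2 difference of 0.04 ± 0.30 (standard error) that was 0.15 ± 0.34 without WT replicate 3. The values of the genotypes lay among each other. Cux2, the homeobox repressor, had 19, 15 and 3 counts in WT and 22, 13 and 21 in HuRHep-/- livers (log2 fold change 0.69, standard error 0.64). Its lowest value was that of WT replicate 3, and without this liver the log2 fold change was -0.03 (standard error 0.37). A1bg had 1, 3 and 5 counts in WT and 3, 4 and 2 in HuRHep-/- livers, and Sult3a1 1, 0 and 3 against 0, 1 and 3. Neither passed the filter, and at these counts a difference was not detectable.

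**Figure D2:**
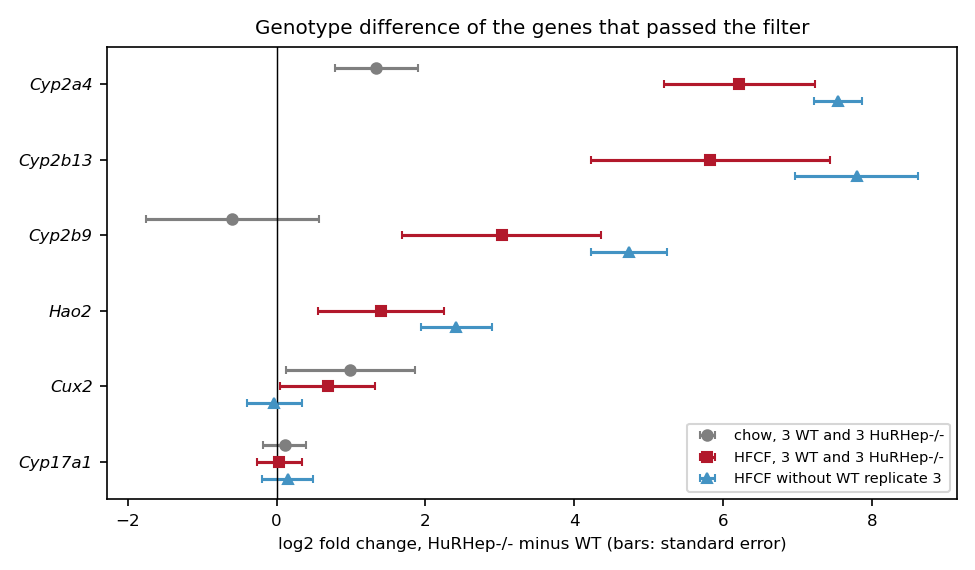
Log2 fold change (HuRHep-/- minus WT) with its standard error for the genes that passed the filter, in chow livers (circles), in HFCF livers (squares) and in HFCF livers without WT replicate 3 (triangles). In HFCF livers Cyp2a4 lies at 6.21, Cyp2b13 at 5.83 and Cyp2b9 at 3.02, each farther from 0 without WT replicate 3, and Cyp17a1 lies at 0.04.

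Of the 6 genes that passed the filter in HFCF livers, 1 was called (Cyp2a4) and 2 had groups without overlap (Cyp2a4 and Cyp2b13), where 3.66% of all 14295 genes tested were called and 36.8% had groups without overlap. Cyp2b13 and Hao2 reached 10 counts in only 1 WT liver, so they passed the filter only through the HuRHep-/- livers, where they were high. Their places in the counts of groups without overlap and in the median are therefore no support for a difference. Without WT replicate 3, Cyp2a4 and Cyp2b9 were called, and 4 genes had groups without overlap (Cyp2a4, Cyp2b9, Cyp2b13 and Hao2), where 5.95% of all genes were called and 50.2% had groups without overlap. Cyp2b13 and Hao2 could not be called in that fit because their WT livers held under 10 counts in all. With all 6 livers but 1, Cyp2a4 was called in 2 of the 6 fits, those without WT replicate 2 or WT replicate 3, and was not called without WT replicate 1 or any of the HuRHep-/- livers, where its log2 fold change was 5.73 to 6.39. The median log2 fold change of the 6 genes was 2.21, beside -0.001 over all genes, and is no independent evidence since the genes were chosen with these values known.

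Cyp2a4 was set beside Cyp2a5, the coumarin hydroxylase from which it differs at so few bases. Cyp2a5 had between 20228 and 38240 counts in the 12 livers, and its log2 fold change was 0.01 in HFCF livers (standard error 0.20, adjusted p = 0.97 by limma), 0.16 without WT replicate 3 (standard error 0.20, adjusted p = 0.629) and -0.51 in chow livers (standard error 0.16, adjusted p = 0.115 by limma). Per kilobase of exon, Cyp2a5 lay at 379 ± 79.4 CPM in HFCF WT and 388 ± 82.0 in HuRHep-/- livers, and Cyp2a4 at 1.86 ± 2.68 and 62.4 ± 23.5 (SD, n = 3 each). Cyp2a4 took 0.0672% ± 0.0359 of the summed counts of both genes in chow WT livers, 0.221% ± 0.0528 in chow HuRHep-/-, 0.358% ± 0.477 in HFCF WT and 11.8% ± 2.68 in HFCF HuRHep-/- livers (SD, n = 3 each). WT replicate 3 held the highest share of the HFCF WT livers with 0.908%, below the 8.82% to 14.0% of the HuRHep-/- livers. In HFCF HuRHep-/- replicates 1, 2 and 3, Cyp2a5 had 38240, 32342 and 22969 counts, beside 6229, 3128 and 3300 of Cyp2a4. In the HFCF WT livers it had 23204, 26404 and 29577, beside 26, 14 and 271 of Cyp2a4, so that the genotypes overlapped in Cyp2a5 and not in Cyp2a4. How reads were split between the genes was not tested.

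**Figure D3:**
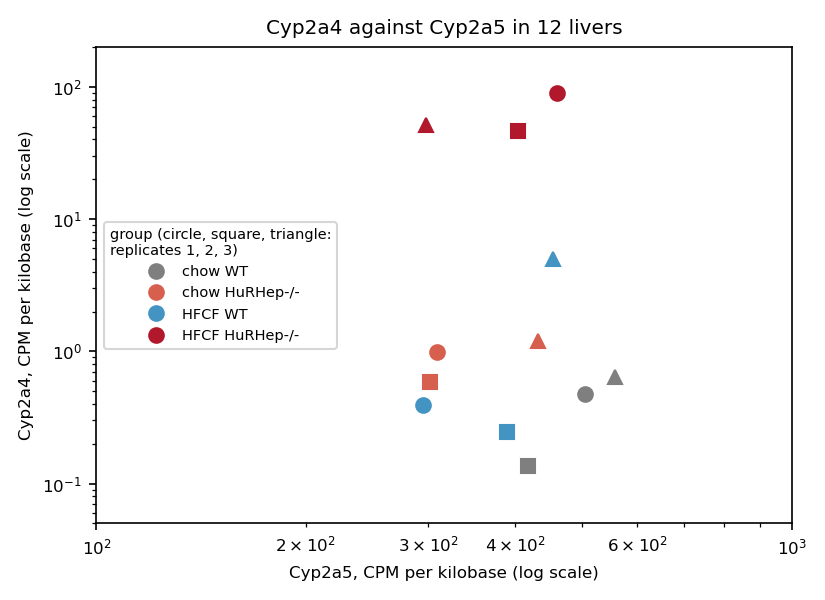
Cyp2a4 against Cyp2a5 in CPM per kilobase of exon (both axes on a log scale) in the 12 livers, coloured by group, with replicates 1, 2 and 3 as circle, square and triangle. The 3 HFCF livers labelled HuRHep-/- lie at 46.7 to 89.3 of Cyp2a4 and HFCF WT replicate 3 at 4.95, above the other 8 livers, while Cyp2a5 lies between 295 and 558 in all of them.

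The ratio of Cyp2b13 to Cyp2b9 was not the same in all HFCF livers. Cyp2b13 took 2.86% ± 2.55 of the counts of the pair in HFCF WT and 20.6% ± 3.10 in HFCF HuRHep-/- livers (SD, n = 3 each). In WT replicate 3, with more Cyp2b9 counts than 2 of the HuRHep-/- livers, its share was 4.91%, below the 18.6% to 24.1% of the latter.

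In livers labelled HuRHep-/-, Cyp2a4, Cyp2b9, Cyp2b13, Hao2 and Cyp17a1 had higher counts in each HFCF liver than in any chow liver. The diets were counted in separate tables, so that diet and any difference between the tables cannot be told apart. From chow to HFCF HuRHep-/- livers the mean of Cyp2a4 went from 1.61 ± 0.543 to 108 ± 40.8 CPM, a ratio of 67.1, and that of Cyp2b9 from 0.467 ± 0.480 to 31.5 ± 9.44 CPM, a ratio of 67.5 (SD, n = 3 each). Neither pair of groups overlapped. Cyp2b13, without a count in the chow HuRHep-/- livers, was at least 93.7-fold higher in the HFCF ones, against 3 counts per library. Hao2 went from 0.0991 ± 0.0648 to 0.730 ± 0.214 CPM and Cyp17a1 from 5.98 ± 0.354 to 11.3 ± 1.73 CPM, both without overlap, and Cux2 from 1.31 ± 1.72 to 0.484 ± 0.127 CPM with overlap. Of the 6 genes tested, 4 were called (Cyp2a4, Cyp2b9, Hao2 and Cyp17a1), where 19.1% of all genes were called, and 5 had groups without overlap, where 54.6% of all genes had such groups. Hao2 and Cyp2b13 passed the filter only through HFCF livers, where they were high, so their places in these counts are no support for a difference. Cyp2b13 could not be called, since its chow HuRHep-/- livers held no count. The calls of Hao2 and Cyp17a1 were lost in each of the 6 fits that left out 1 of these livers, while Cyp2a4 and Cyp2b9 were called in each of them. Hao2 held 10 counts over the chow HuRHep-/- livers, the minimum for a call, so leaving out any of those livers fixed its loss in advance. The call of Cyp17a1 was also lost without a filter on low counts. In these 6 fits the log2 difference was 0.78 to 0.98 for Cyp17a1 and 2.58 to 3.24 for Hao2, and the groups of both stayed without overlap. In the same comparison all 7 stellate cell markers, all 6 cholangiocyte markers, 4 of 8 macrophage markers and 3 of 6 lymphocyte markers were called higher, and 2 of 8 hepatocyte markers lower. The stellate cell markers summed to 174 to 251 CPM in chow and 390 to 454 CPM in HFCF HuRHep-/- livers. Their part in the diet difference of the 8 genes was not tested.

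In WT livers the diet differences of Cyp2a4, Cyp2b9 and Hao2 were smaller without HFCF WT replicate 3. Cyp2a4 went from 0.723 ± 0.447 to 3.24 ± 4.65 CPM and Cyp2b9 from 0.885 ± 0.739 to 14.0 ± 22 CPM (SD, n = 3 each), with standard deviations above the means in HFCF. The log2 differences were 1.17 (standard error 0.91) and 2.86 (standard error 1.40), and without HFCF WT replicate 3 they were -0.15 and 1.16. For Hao2 the log2 difference was 2.42 with all livers and 1.42 without this one. Cyp2b13 had 0, 0 and 1 counts in chow WT and 3, 0 and 64 in HFCF WT livers, which allows no fold. Cyp17a1 went from 5.97 ± 2.77 to 11.5 ± 4.61 CPM, a log2 difference of 0.96 (standard error 0.33) that was 0.85 without this liver, close to the 0.91 found in HuRHep-/- livers. By limma 0 of the 6 genes were called in WT livers, where 9.41% of all genes were called, and voom weights called 0 as well. Hao2 and Cyp2b13 could not be called here, since the chow WT livers held only 5 and 1 counts of them in all. Cyp17a1 was called with upper-quartile factors (1.01), with 10 counts required in every library (0.98), without HFCF WT replicate 1 (1.33) and without chow WT replicate 3 (1.31), and Cyp2b9 without HFCF WT replicate 2 (4.14).

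The genotype difference in HFCF minus that in chow livers was 4.89 for Cyp2a4 (standard error 1.29), 3.64 for Cyp2b9 (1.98) and 0.40 for Hao2 (1.32) on the log2 scale. No value is given for Cyp2b13, whose chow livers held 1 count in all. The difference was -0.05 for Cyp17a1 (standard error 0.47) and -0.29 for Cux2 (1.19). By limma 0 of 14535 genes were called for this difference (0.0%), with 2084 genes at an unadjusted p under 0.05 and 0 called with voom weights. Without HFCF WT replicate 3, 34 genes (0.234%) were called, Cyp2a4 among them with 6.21 (standard error 0.76), and the difference was 5.34 for Cyp2b9 (1.54), 1.40 for Hao2 (1.16), 0.06 for Cyp17a1 (0.51) and -1.01 for Cux2 (1.13).

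Per kilobase of exon the order of the genes differed between groups. In chow WT livers Cyp17a1 came first with 2.15 ± 1.00 CPM per kilobase, followed by Cyp2b9 with 0.472 ± 0.394 and Cyp2a4 with 0.416 ± 0.257, which did not differ beyond their spread. Cux2, A1bg, Hao2 and Cyp2b13 lay at 0.0359 or less. In HFCF HuRHep-/- livers Cyp2a4 came first with 62.4 ± 23.5, then Cyp2b9 with 16.8 ± 5.03, Cyp2b13 with 4.53 ± 2.25 and Cyp17a1 with 4.09 ± 0.626, of which the last pair did not differ beyond their spread (SD, n = 3 each). Hao2 (0.356 ± 0.104), Cux2 (0.0480 ± 0.0126), A1bg (0.0323 ± 0.0104) and Sult3a1 (0.0308 ± 0.0357) followed. In chow HuRHep-/- livers Cyp17a1 (2.16 ± 0.128) was followed by Cyp2a4 (0.925 ± 0.312), and in HFCF WT livers Cyp2b9 (7.47 ± 11.7), Cyp17a1 (4.17 ± 1.67) and Cyp2a4 (1.86 ± 2.68) had overlapping ranges.

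Within groups Cyp2a4 and Cyp2b9 varied together. The 3 livers of a group had the same order for both genes in all 4 groups, with replicate 2 the lowest each time. Of the other 5 pairs among Cyp2a4, Cyp2b9, Cyp2b13 and Hao2, 4 had the same order in 2 of the 4 groups and 1, Cyp2b13 with Hao2, in 1. Over 12 libraries the correlation of their deviations from the group means was 0.954, and 0.944 without HFCF WT replicate 3. For Cyp2a4 with Hao2 it was 0.862 and 0.735, and for Cyp2a4 with Cyp2b13 0.900 and 0.603. For Cyp2b13 with Hao2 it was 0.653 and 0.153, and for Cyp17a1 with Hao2 0.645 and 0.713. For Cux2 it was -0.225 and 0.490 with Cyp2a4 and 0.0242 and 0.659 with Cyp2b9. Each point shares its library and scaling factor between the genes, and the values are a description of these libraries.

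By Pearson correlation of log2 CPM over the 12 libraries, the genes outside the 8 with the most similar pattern (mean normalised count of at least 100) were Ost4 (0.981) and Eif6 (0.981) for Cyp2a4, Cdc42 (0.957) and Ndufa8 (0.944) for Cyp2b9, and Abracl (0.978) and Cdc42se1 (0.969) for Cyp2b13. They were Acnat2 (0.953) and Ctsb (0.941) for Hao2, Ifrd2 (0.885) and Abcg5 (0.870) for Cyp17a1, and Timm10b_1 (0.818) and Morn2 (0.805) for Cux2. The 12 libraries include the differences between groups, and nothing is read from the order of these genes.

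Beside the 8 genes, lists of other sex-biased genes were described in the same livers. Of 24 male-biased genes tested, 6 fell in HFCF livers labelled HuRHep-/- and 0 rose, where 3.66% of all genes were called, with a median log2 fold change of -0.86 beside -0.001 over all genes. Those that fell were Susd4, a complement regulator (-2.29, standard error 0.31, adjusted p = 0.0178 by limma), C6, a complement component (-1.65, standard error 0.22, adjusted p = 0.0178), Ugt2b38, Serpina3k, Cyp2d9 and Keg1. In chow livers 1 of 25 rose (Mup20, log2 fold change 1.13, adjusted p = 0.0131 by limma) and 0 fell, where 2.23% of all genes were called. HFCF WT replicate 3 also stood apart here: the steroid dehydrogenase Hsd3b5, named after its values were seen, had 2774, 6771 and 180 counts in HFCF WT and 73, 212 and 310 in HuRHep-/- livers, and without this liver 15 of the 24 genes fell, where 5.95% of all genes were called. Susd4 lay at -2.62 and C6 at -1.88 in that fit. Of the other female-biased genes tested, 2 of 25 rose in HFCF livers, Prom1 (1.03, standard error 0.22, adjusted p = 0.0427 by limma) and the hepcidin gene Hamp2 (1.33, standard error 0.24, adjusted p = 0.0311), and 0 fell, beside 3.66% of all genes called. In chow livers 1 of 22 fell, beside 2.23% of all genes called, namely Hamp2 (-1.99, standard error 0.43, adjusted p = 0.0471 by limma). The medians were 0.16 and -0.10, and without HFCF WT replicate 3 the number that rose was 4, beside 5.95% of all genes called, with Prom1 no longer called (adjusted p = 0.0535 by limma).

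**Figure D4:**
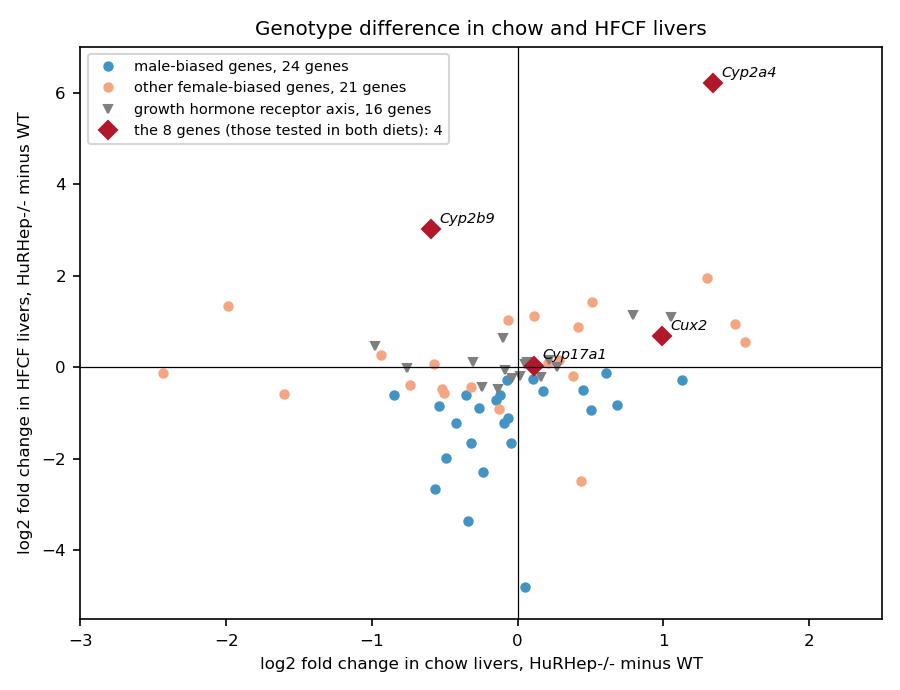
Log2 fold change (HuRHep-/- minus WT) in HFCF livers against that in chow livers for genes tested in both: 4 of the 8 genes (diamonds), 21 other female-biased genes and 24 male-biased genes (circles) and 16 genes of the growth hormone receptor axis (triangles). Cyp2a4 and Cyp2b9 lie above the other genes in HFCF livers, and all 24 male-biased genes have HFCF estimates below 0.

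The genes through which hepatocytes read the hormone were listed as the growth hormone receptor axis. By limma 0 of these 17 genes were called in HFCF livers, with 6 at an unadjusted p under 0.05 beside 29.5% of all genes, and 0 of 16 in chow livers, with 4 at that threshold beside 23.5% of all genes, and voom weights called 0 in both. Ghr, the receptor, had a log2 fold change of -0.42 in HFCF livers (standard error 0.094, adjusted p = 0.0459 by limma) and -0.46 without WT replicate 3, under the fold change minimum in both. Ptpn11, a phosphatase of the pathway (-0.23, adjusted p = 0.0626), and Socs3, its feedback inhibitor (1.15, adjusted p = 0.0801), did not pass the threshold. Without HFCF WT replicate 3, 1 of the 17 was called, beside 5.95% of all genes, namely Igfbp3, a carrier of IGF1 (0.92, standard error 0.20, adjusted p = 0.0438 by limma).

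Other cell types were checked beside the 8 genes, and in whole liver fewer cells of a type and less RNA per cell cannot be told apart. The 8 hepatocyte markers summed to 96669 to 118720 CPM in chow WT, 80758 to 87069 in chow HuRHep-/-, 69712 to 76205 in HFCF WT and 63147 to 67587 in HFCF HuRHep-/- livers, with 0 of 8 called between genotypes. The 6 cholangiocyte markers summed to 39.2 to 88.5 CPM in HFCF WT and 134 to 244 CPM in HFCF HuRHep-/- livers, with 2 of 6 called higher, and to 35.7 to 79.6 and 47.7 to 78.4 CPM in chow. By limma 6 of 6 were at an unadjusted p under 0.05 in HFCF, beside 29.5% of all genes, and 0 in chow. The 8 Kupffer cell and macrophage markers summed to 219 to 355 and 305 to 505 CPM in HFCF and to 144 to 185 and 203 to 300 CPM in chow livers, with 0 of 8 called. All 8 estimates lay above 0 in both diets. By limma 5 of 8 were at an unadjusted p under 0.05 in chow, beside 23.5% of all genes, and 3 of 8 in HFCF, beside 29.5%. The 7 acute phase genes summed to 4942 to 6024 and 6473 to 8002 CPM in HFCF and to 6612 to 7718 and 7722 to 13150 CPM in chow livers, with 4 of 7 called higher in chow, 0 in HFCF and 4 in HFCF without WT replicate 3. Of all genes, 2.23% were called in chow, 3.66% in HFCF and 5.95% in HFCF without WT replicate 3. The part of these in the values of Cyp2a4, Cyp2b9, Cyp2b13 and Hao2 was not tested. Stellate cell markers summed to 250 to 429 and 390 to 454 CPM, endothelial markers to 106 to 126 and 119 to 121 CPM and lymphocyte markers to 3.11 to 5.71 and 4.46 to 6.01 CPM in HFCF WT and HuRHep-/- livers, and limma called 0 of these 19 markers in HFCF livers and 0 of the 17 that passed the filter in chow livers, with 6 at an unadjusted p under 0.05 in HFCF, where 29.5% of all genes were, and 0 in chow. Without HFCF WT replicate 3, 1 macrophage, 1 stellate cell and 1 lymphocyte marker were called higher and 1 lymphocyte marker lower, beside the 5.95% of all genes. The 6 kidney markers summed to at most 0.163 CPM, and the 6 adrenal markers to 1.67 to 14.3 CPM. Of the adrenal markers Cyp11a1, Cyp11b1 and Cyp11b2 had 0 or 1 counts, or no row, in each library and Nr5a1 no row, while Star had 40 to 73 counts and Cyp21a1 13 to 362, beside the 108 to 514 counts of Cyp17a1. Pancreas markers summed to at most 1.55 CPM.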

How the data were processed

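Liver RNA of 12 male mice was sequenced from a stranded kit, with RNA integrity numbers above 6.0 per the labels. Alignment was run by the authors with CLC Genomics Workbench on GRCm38.p6 (mm10), and they deposited raw counts per gene in 2 tables, 1 per diet, without normalization. The deposited values are text with commas between digits, recorded as a unit other than plain counts, and once the commas were removed 0 values were other than whole. Their own test in CLC was not used here. The list of regulators of sex-biased expression is not reported here.

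The 8 genes, the gene lists and the tests were chosen with earlier results of these data known. Counts were scaled with TMM factors (trims 0.3 and 0.05) and turned into log2 CPM with a pseudocount of 0.5, which understates changes of low genes. Genes entered a fit if 3 or more libraries held the equivalent of 10 counts and the sum was 15 or more. limma 3.58.1 (R 4.3.3) with a variance trend was fitted on 6 libraries for genotype and on 12 for diet and for the difference between diets, with Benjamini-Hochberg adjustment over all genes tested. P-values measure the spread between these mice. A floor of 3 counts per library stood for a count of 0 and covers counting error only.

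Named were the 8 genes, Elavl1 and some close relatives of the 8. From the lists of sex-biased and receptor axis genes, those called in either diet were named, or else the 3 with the smallest p. Igfbp3 was named for its call without HFCF WT replicate 3, and Hsd3b5 after its values were seen. For each of the 8 genes that passed the filter, the 2 with the highest correlation were named. Markers of cell types were mostly given as sums and counts of calls. Positions, exon lengths and transcripts came from GENCODE vM21 (GRCm38), where 172 of 172 identifiers matched, and promoter windows from RefSeq (GRCm38.p6). On simulated counts the fits called 195 of 200 changed genes for the chow table of 13526 genes and 196 of 200 for the HFCF table of 14295. For the joint table of 14535 genes they called 183 of 200. Beside these, 9, 5 and 7 unchanged genes were called, in the same order. The changed genes had mean log2 estimates of 1.99, 1.98 and 1.99. Recovery of smaller differences was not tested. How many differences between the livers themselves the fits miss was not tested either. Alternatives covered scaling factors (RLE, upper quartile), the filter, a pseudocount of 2, voom weights, no fold change minimum, a replicate block, a fit on 12 libraries, summed relatives and leaving out each library.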

Additional observations from a re-analysis of the deposited data

How the results depend on the processing

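Of 125 values of the 8 genes under the alternatives, 123 lay within 1 standard deviation of the value given. The other 2 were those of Cyp2a4 with its counts summed with Cyp2a5, 0.19 in HFCF and -0.51 in chow livers, a sum made up mostly of Cyp2a5 counts. The standard deviation is the gene's own spread between livers of a group in the main fit. It is wide where HFCF WT replicate 3 stands apart, so large shifts also count as within it. The filter settings and the fit without a fold change minimum were not among the 125. Summed with Cyp2b9, Cyp2b13 went from 5.83 to 3.31 in HFCF livers, within that spread, and its groups then overlapped. With 1 liver left out, the log2 fold change in HFCF livers ran from 5.38 to 7.54 for Cyp2a4, from 4.16 to 7.79 for Cyp2b13, from 1.73 to 4.73 for Cyp2b9 and from 0.64 to 2.42 for Hao2, each highest without WT replicate 3. In chow livers it ran from 0.69 to 1.77 for Cyp2a4, from -1.91 to 0.18 for Cyp2b9 and from -0.12 to 1.59 for Cux2. The call of Cyp2a4 in HFCF livers was kept under all 9 other settings of the gene alone and in 2 of 6 fits without 1 liver. No value could be given for the summed counts of Sult3a1 and Sult3a2. Cyp2b13 was called in HFCF livers in the fit on 12 libraries and with the replicate block.

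The number of genes called was 302 in chow, 523 in HFCF, 0 for the difference between the diets, 1368 for diet in WT and 2772 for diet in HuRHep-/- livers. Without the fold change minimum it was 563, 965, 0, 3434 and 5566, and without the count minimum of the groups as well it was 571, 978, 0, 3514 and 5650. With 1 library left out it ran from 8 (without chow HuRHep-/- replicate 2) to 326 in chow, from 29 (without HFCF HuRHep-/- replicate 1) to 850 (without HFCF WT replicate 3) in HFCF, from 0 to 34 for the difference between the diets, from 849 to 1787 for diet in WT and from 2151 to 2509 for diet in HuRHep-/- livers. In chow livers it was 112 without WT replicate 1, 79 without WT replicate 3 and 97 without HuRHep-/- replicate 1, and in HFCF livers 39 without WT replicate 1, 32 without HuRHep-/- replicate 2 and 99 without HuRHep-/- replicate 3. The cause was not tested, beyond the smaller number of samples in these fits. Upper-quartile factors called 305 genes higher and 150 lower in HFCF livers, where TMM called 314 and 209. Of 510 values of other named genes, 65 lost their call, 8 gained one and 0 reversed.

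Replicate numbers are shared between genotypes in the labels. The correlation of the deviations of samples with the same number was -0.0276, 0.112 and -0.0159 in chow and 0.0993, 0.21 and 0.0888 in HFCF livers. Between samples with different numbers it ran from -0.155 to 0.148 in chow and from -0.144 to 0.0338 in HFCF livers. In HFCF livers each value of the same number thus lay above all the others. Whether the numbers pair the mice was not settled, and the main fits left them out. With the replicate block 225 genes were called in chow and 764 in HFCF livers.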

Other observations

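Other members of the Cyp2a and Cyp2b families differed among themselves. Cyp2a22, a neighbour of Cyp2a5, had 222, 189 and 736 counts in HFCF WT and 1808, 1758 and 1652 in HFCF livers labelled HuRHep-/- (log2 difference 2.27 ± 0.50, standard error, with adjusted p = 0.0444 by limma), with WT replicate 3 the highest WT liver as for Cyp2a4, and 2.94 without that liver. In chow livers it had 48, 23 and 88 against 68, 72 and 56 counts (0.37, adjusted p = 0.639 by limma). Of the Cyp2a22 transcript, 39.4% in words of 31 bases also occurred in other genes, most in Cyp2a12. Cyp2b10, the drug-inducible member of its family, had 7, 11 and 142 counts in HFCF WT and 60, 71 and 85 in HuRHep-/- livers (1.44, standard error 1.05, adjusted p = 0.394 by limma), again with WT replicate 3 apart from the other 2. Without that liver it was called (2.81, standard error 0.35, adjusted p = 0.0185 by limma). In chow livers it had 647, 159 and 281 against 496, 279 and 778 counts.

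Cyp21a1, the steroid hydroxylase that acts after Cyp17a1 in some steroid paths, fell in HFCF livers labelled HuRHep-/- from 171, 211 and 111 counts to 19, 19 and 30 (log2 difference -3.01 ± 0.30, standard error, with adjusted p = 0.00852 by limma), while Cyp17a1 did not differ beyond its spread. Without WT replicate 3 the log2 difference of Cyp21a1 was -3.21. In chow livers it had 35, 362 and 64 counts in WT and 19, 13 and 20 in HuRHep-/- livers (-2.54, standard error 0.76, adjusted p = 0.102 by limma). Of its transcript, 35.9% in words of 31 bases also occurred in the pseudogene Cyp21a2-ps.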
